A study of Mus musculus with 12 samples.

Results

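The BCL2 family survival and death genes described here are 10 genes that set whether a cell starts the mitochondrial route of programmed death. Bcl2, Bcl2l1 and Mcl1 encode survival proteins, Bax and Bak1 encode the pore formers, and Bcl2l11, Bmf, Bid, Pmaip1 and Bbc3 encode BH3-only proteins. They were chosen by name, as the array probes whose listed gene is 1 of these symbols or a synonym of it, and not by a threshold on their values, with earlier results of these data known. All 10 were measured, by 12 probes, among 22978 genes that passed the filter on dim probes. Each of the 12 probes was well above background on all 12 arrays, and none was saturated on any array.

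RNA came from bone marrow cells grown for 10 days in RPMI with GM-CSF at 20 ng/ml, which the labels name bone marrow derived macrophages. The marrow was that of 2 mice labelled Commd1 wildtype and 2 mice labelled Commd1 knockout. The cells of each mouse were divided and left untreated, or given LPS of Escherichia coli at 10 ng/mL for 3 h or for 24 h, so that there were 6 groups with 2 samples each and 1 single-colour Agilent array per sample. Commd1 encodes a protein best known as a brake on the transcription factor NF-kB, and LPS is the bacterial lipopolysaccharide that macrophages sense through the receptor Tlr4. The strain, the sex and age of the mice, the allele and the cells in which Commd1 was deleted were not given in the sources used here.

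Levels are given as the log2 processed signal of a probe minus the 75th percentile of its array. A level sets samples side by side for 1 probe and does not compare genes with each other. Differences are in log2 units with their standard error after ±, and a gene is said to rise or fall only where the adjusted p of limma's moderated test over all genes was under 0.05.

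Commd1 had levels of 2.70 to 2.89 in the 6 wildtype samples, against -0.50 to 0.07 in the 6 knockout samples. The groups did not overlap, and the untreated difference was -3.01 ± 0.23. Whether the probe lies in the deleted part was not given in the sources used here. The 2 replicates of a group correlated across genes with r of 0.994 to 0.997. All 8 macrophage markers were well above background on all 12 arrays, as were 4 of 6 dendritic cell and 5 of 6 neutrophil markers, of which Xcr1 and Ly6g did not pass the filter. Each LPS time lay on a slide of its own, so slide and time cannot be told apart, and on each slide wildtype took the first positions and knockout the last, so genotype and position cannot be told apart.

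Cells hold a balance of these proteins. Survival members bind and restrain both the pore formers and the BH3-only proteins, BH3-only proteins are the sensors of stress that loosen this restraint, and Bax and Bak1, once active, let cytochrome c out of the mitochondria so that caspases are switched on. In macrophages and other myeloid cells, signals from Toll-like receptors and growth factors such as GM-CSF are known to act on several of these genes. The arrays measured RNA only, and in RNA from a whole culture, fewer cells of a type and less RNA per cell cannot be told apart.

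LPS moved the members apart rather than in 1 direction. At 3 h Bcl2l11 rose 11.6-fold in wildtype and 14-fold in knockout cells, while Bmf fell to 1.98% and 0.634% of its untreated signal. Pmaip1 and Bbc3 also fell at 3 h in both genotypes, and Bak1 rose. By 24 h Bcl2l1, Mcl1, Bid and Bak1 were above untreated in both genotypes, Pmaip1 no longer differed by the test, Bcl2l11 had come part of the way down and Bmf part of the way up. Between genotypes, 2 members passed the test, both in untreated cells, where 6.84% of all genes were called: Bcl2l1 was lower and Bmf higher in knockout.

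**Figure D1:**
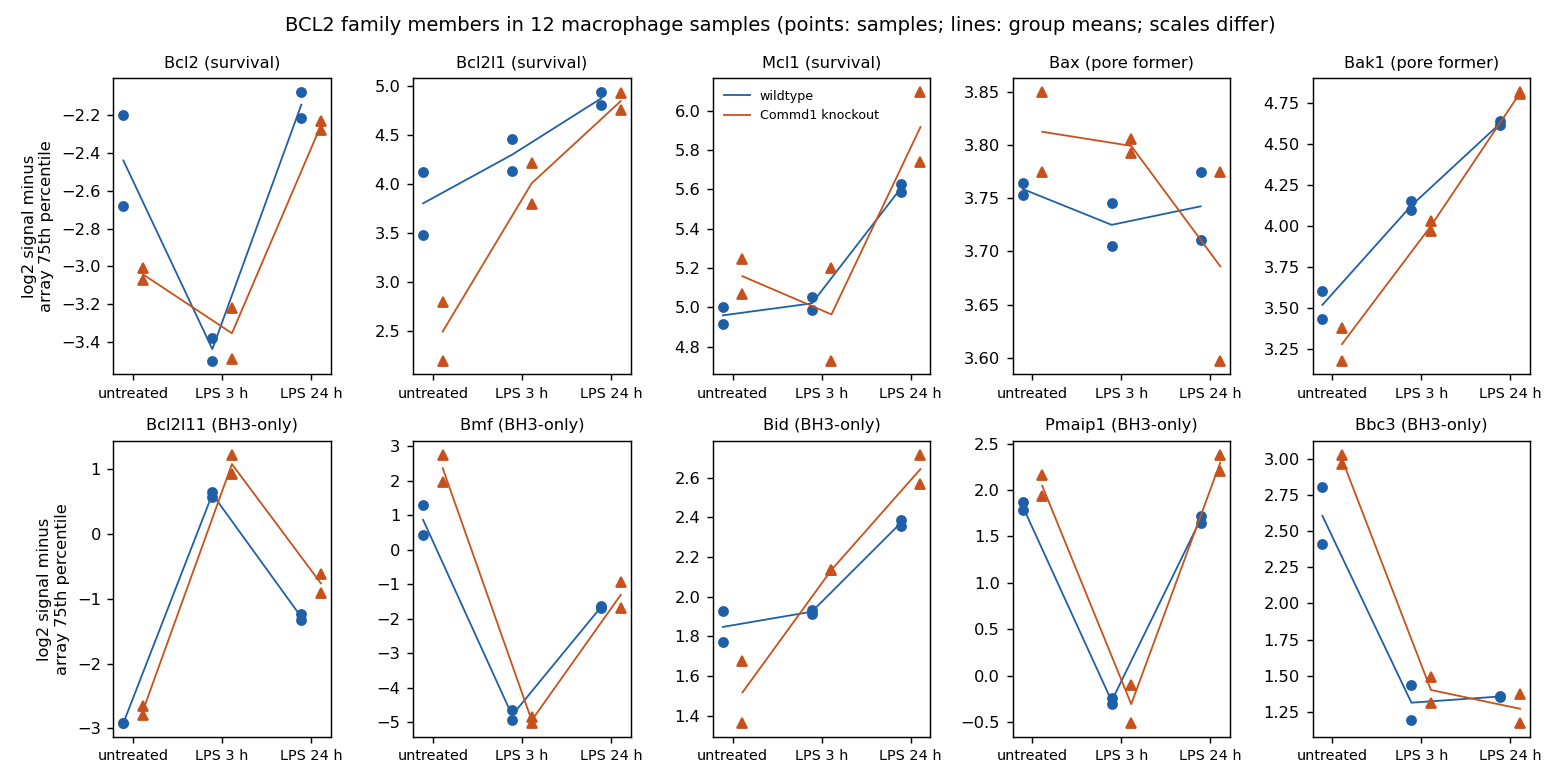
Log2 level (log2 signal minus the array's 75th percentile, vertical axis, scaled separately in each panel) of the 10 members in untreated, 3 h LPS and 24 h LPS samples (horizontal axis), with circles for wildtype and triangles for Commd1 knockout, 1 point per sample and lines through the 2-sample means. Bcl2l11 peaks at 3 h, Bmf and Pmaip1 are lowest at 3 h, and Bak1 rises at each step.

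Among the survival genes, Bcl2 encodes the founding member of the family. Its probe lies on the minus strand at chr1:108608970-108609029 in the mm9 build of the array design. The sequence is shown because it is the only Bcl2 probe on which the values rest, with no part marked:
Bcl2 probe: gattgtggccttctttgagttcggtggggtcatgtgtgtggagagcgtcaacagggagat
In wildtype cells the level of Bcl2 was -2.68 and -2.20 untreated, -3.50 and -3.38 at 3 h, and -2.21 and -2.08 at 24 h. In knockout cells it was -3.01 and -3.07 untreated, -3.22 and -3.49 at 3 h, and -2.23 and -2.28 at 24 h. The 3 h samples were the lowest in each genotype without overlap, and the untreated knockout samples lay below the untreated wildtype samples. In wildtype, Bcl2 fell at 3 h (-1.0 ± 0.16, adjusted p = 0.0011), and at 24 h it stood 0.29 ± 0.16 above untreated, which did not pass (adjusted p = 0.16). In knockout the 3 h difference of -0.31 ± 0.16 did not pass, and at 24 h Bcl2 was higher than untreated by 0.79 ± 0.16 (adjusted p = 0.0031). From 3 h to 24 h it rose in both genotypes, by 1.29 in wildtype and 1.10 in knockout.

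Bcl2l1 encodes Bcl-xL and its shorter, death-promoting splice form Bcl-xS. Which of these forms each probe reads was not given in the sources used here. In wildtype the level of Bcl2l1 was 3.48 and 4.13 untreated, 4.14 and 4.47 at 3 h, and 4.81 and 4.94 at 24 h. In knockout it was 2.19 and 2.79 untreated, 3.80 and 4.22 at 3 h, and 4.76 and 4.94 at 24 h. The untreated knockout samples were the lowest of all 12, the 24 h samples the highest, and in both genotypes replicate 1 was below replicate 2 at all 3 times. In knockout, Bcl2l1 rose 2.86-fold by 3 h (1.52 ± 0.27, adjusted p = 0.0015) and 5.13-fold by 24 h (2.36 ± 0.27, adjusted p = 0.00012). In wildtype it was 2.10-fold higher at 24 h (1.07 ± 0.27, adjusted p = 0.010), and the 3 h difference of 0.50 ± 0.27 did not pass (adjusted p = 0.16). With each mouse as a block, so that a mouse's samples are paired, the wildtype 3 h difference passed (adjusted p = 0.036), as did the wildtype step from 3 h to 24 h (0.58, adjusted p = 0.11 without the block and 0.019 with it). The wildtype 24 h call was lost without untreated replicate 1 (0.75, adjusted p = 0.072) or 24 h replicate 2 (1.01, adjusted p = 0.056).

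Mcl1 encodes a survival protein with a very short life. Its 2 probes gave different pictures at 3 h. The brighter probe, at chr3:95466855-95466914 (mm9, plus strand), read 5.0 and 4.92 untreated, 4.99 and 5.05 at 3 h, and 5.63 and 5.59 at 24 h in wildtype. It read 5.25 and 5.07 untreated, 5.20 and 4.73 at 3 h, and 5.74 and 6.10 at 24 h in knockout, so that in both genotypes only the 24 h samples stood apart. The other probe, upstream of it at chr3:95465543-95465602, read 3.42 and 3.41 untreated, 4.45 and 4.41 at 3 h, and 4.16 and 4.19 at 24 h in wildtype. In knockout it read 3.48 and 3.36, 4.91 and 4.32, and 4.36 and 4.61 at the same times, so that all LPS samples lay above all untreated samples.

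By the brighter Mcl1 probe, which stood for the gene, the 3 h difference was 0.06 ± 0.17 in wildtype and -0.19 ± 0.17 in knockout, and neither passed. By the other probe Mcl1 rose at 3 h by 1.02 ± 0.17 in wildtype (adjusted p = 0.0016 over all probes) and by 1.20 ± 0.17 in knockout (adjusted p = 0.00048). At 24 h both probes were higher than untreated, by 0.65 and 0.76 in wildtype and by 0.76 and 1.06 in knockout. From 3 h to 24 h the brighter probe rose (0.59 in wildtype, 0.95 in knockout), and the other did not pass (-0.26 and -0.13). The 2 probes thus changed unequally between 3 h and 24 h, and which transcripts each of them reads was not given in the sources used here. The 24 h call in wildtype was lost without untreated replicate 2 (adjusted p = 0.062) or 24 h replicate 1 (adjusted p = 0.060), and the step from 3 h to 24 h in wildtype was lost when any of its 4 samples was left out.

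**Figure D2:**
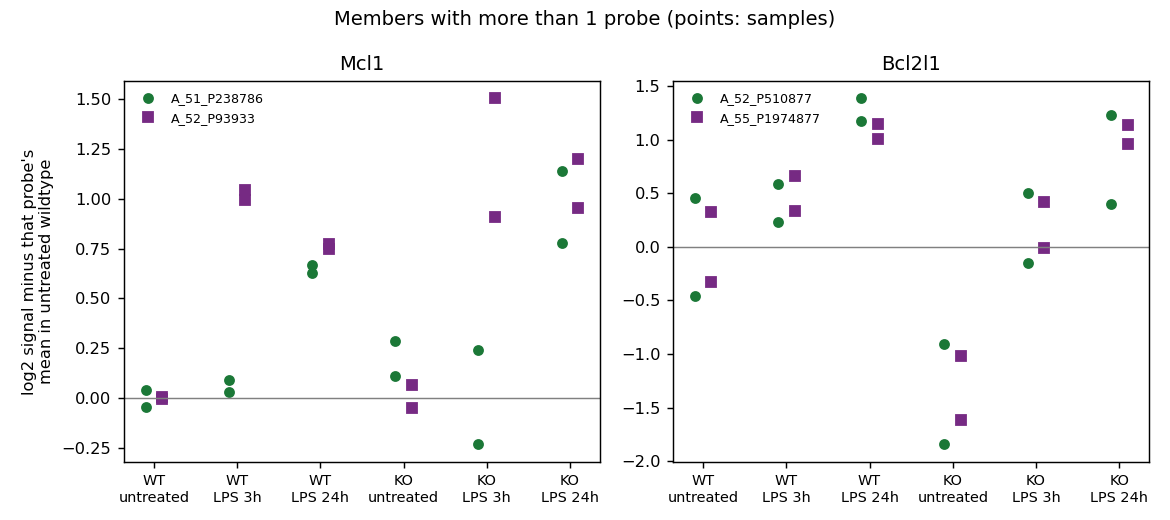
Log2 signal of each probe minus that probe's own mean in untreated wildtype (vertical axis) for the members with 2 probes, Mcl1 and Bcl2l1, in the 6 groups (horizontal axis), 1 point per sample. At 3 h the Mcl1 probe A_52_P93933 is above 0.75 in all 4 samples while A_51_P238786 is below 0.25. The 2 Bcl2l1 probes change in the same direction from untreated in each genotype.

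The 2 Bcl2l1 probes, at chr2:152606404-152606463 and chr2:152655185-152655244 (mm9, minus strand), changed in the same direction from untreated. The second, dimmer probe differed from untreated by 0.41 at 3 h and 1.28 at 24 h in wildtype, and by 1.55 and 2.18 in knockout. Of these, the wildtype 3 h difference did not pass, as with the brighter probe. From 3 h to 24 h in knockout the dimmer probe did not pass (0.64, adjusted p = 0.24 over all probes), and its samples of these times overlapped. The brighter probe rose by 0.84 (adjusted p = 0.026), a call that 9 of 13 alternatives kept. It was lost with the mean over both probes (0.74, adjusted p = 0.089).

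Bax and Bak1 encode the pore formers, of which 1 is enough for the mitochondrial route in many cells. Bax was the steadiest member. Its level lay between 3.60 and 3.85 in all 12 samples, and its 6 group means spanned 0.13. Against untreated it differed by -0.03 and -0.02 in wildtype, and by -0.01 and -0.13 in knockout, with a standard error of 0.09, and none passed. The 95% intervals of the 3 h differences were -0.23 to 0.16 in wildtype and -0.21 to 0.18 in knockout. With quantile normalization in place of the 75th percentile, Bax was called lower at 3 h in both genotypes (-0.31 and -0.34) and at 24 h in knockout (-0.32). With the percentile taken over probes well above background on all arrays, Bax was also called lower at 24 h in knockout (-0.25, adjusted p = 0.017 in limma). Its steadiness thus holds for the scaling used here.

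Bak1 rose at each step. Its level in wildtype was 3.43 and 3.60 untreated, 4.10 and 4.15 at 3 h, and 4.64 and 4.61 at 24 h. Its knockout levels were 3.18 and 3.38 untreated, 3.97 and 4.03 at 3 h, and 4.80 and 4.82 at 24 h. Samples of the 3 times did not overlap in either genotype. Bak1 rose 1.52-fold by 3 h and 2.15-fold by 24 h in wildtype (0.61 and 1.11 ± 0.10), and 1.65-fold and 2.89-fold in knockout (0.72 and 1.53 ± 0.10), with adjusted p of 0.0011 or less. The step from 3 h to 24 h passed as well, at 0.50 in wildtype and 0.81 in knockout.

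Of the BH3-only genes, Bcl2l11 encodes Bim, a strong killer that binds all survival members and is known to limit the life of blood cells. Its probe is listed at chr2:127972893-127983988 (mm9, plus strand), a span of 11096 bases for a 60-base probe, so that it reads across a splice junction. The probe is shown because the strongest rise among the members rests on it. RefSeq lists 2 start sites for it. The 250 bases before the first (GRCm38.p6, chr2:128125788-128126037, plus strand) are shown with the match to the FOXO site TGTTTAC in capitals, on the reverse strand at 227 to 221 bases before the start, and the second window holds none of the motifs searched:
Bcl2l11 probe: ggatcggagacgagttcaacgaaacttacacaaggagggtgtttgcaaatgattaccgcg
Bcl2l11 upstream window: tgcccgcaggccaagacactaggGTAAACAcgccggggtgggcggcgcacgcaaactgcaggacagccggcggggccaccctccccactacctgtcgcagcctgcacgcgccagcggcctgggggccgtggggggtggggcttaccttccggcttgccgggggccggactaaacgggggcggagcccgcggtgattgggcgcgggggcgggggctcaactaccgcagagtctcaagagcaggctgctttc
In wildtype the level of Bcl2l11 was -2.92 and -2.92 untreated, 0.66 and 0.58 at 3 h, and -1.33 and -1.24 at 24 h. In knockout it was -2.80 and -2.66 untreated, 1.23 and 0.93 at 3 h, and -0.91 and -0.61 at 24 h. The 3 times did not overlap in either genotype, and at each time both knockout samples were above both wildtype samples. Bcl2l11 rose by 3.54 ± 0.13 at 3 h in wildtype (adjusted p = 2.6e-07) and by 3.81 ± 0.13 in knockout (adjusted p = 1.6e-07). At 24 h it was still 3.11-fold and 3.91-fold above untreated, after a fall of 1.90 and 1.84 from the 3 h level.

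Bmf encodes a BH3-only protein known to be tethered to the cytoskeleton, and its RNA moved most of all members, with 6 group means that spanned 7.30. Its probe is at chr2:118354496-118354555 (mm9, minus strand). The first of its 3 upstream windows in RefSeq (GRCm38.p6, chr2:118544588-118544837, minus strand) is shown as that of the member with the widest span, with the match to the p53 half-site, 213 to 204 bases before the start, in capitals, and the other windows hold none of the motifs searched:
Bmf upstream window: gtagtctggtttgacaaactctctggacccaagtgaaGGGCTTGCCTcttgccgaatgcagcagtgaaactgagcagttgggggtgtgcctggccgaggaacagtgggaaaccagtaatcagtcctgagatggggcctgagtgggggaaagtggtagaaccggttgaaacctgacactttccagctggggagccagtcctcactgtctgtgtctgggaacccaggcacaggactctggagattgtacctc
The level of Bmf in wildtype was 1.29 and 0.44 untreated, -4.64 and -4.94 at 3 h, and -1.63 and -1.68 at 24 h. In knockout it was 2.75 and 1.97 untreated, -4.85 and -5.03 at 3 h, and -0.93 and -1.68 at 24 h. Untreated samples were the highest, 3 h samples the lowest and 24 h samples between them, without overlap in either genotype. Bmf fell by 5.66 ± 0.36 at 3 h in wildtype (adjusted p = 4.8e-06) and by 7.30 ± 0.36 in knockout (adjusted p = 8.6e-07). At 24 h it was at 17.4% of the untreated signal in wildtype and 7.87% in knockout, after a rise of 3.14 and 3.63 from 3 h.

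Bid encodes a protein that caspases cut into an active form, which ties death receptors to the mitochondria. In wildtype its level was 1.77 and 1.93 untreated, 1.91 and 1.93 at 3 h, and 2.39 and 2.36 at 24 h. The knockout levels of Bid were 1.36 and 1.67 untreated, 2.13 and 2.14 at 3 h, and 2.72 and 2.57 at 24 h. The wildtype untreated and 3 h samples overlapped, and the knockout times did not. Bid rose in knockout at 3 h (0.62 ± 0.12, adjusted p = 0.0021) and 24 h (1.13 ± 0.12, adjusted p = 6.7e-05), and in wildtype at 24 h (0.53 ± 0.12, adjusted p = 0.0057). The wildtype 3 h difference was 0.08 ± 0.12 and did not pass.

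Pmaip1 encodes Noxa, which binds mainly Mcl1, and Bbc3 encodes Puma, which binds all survival members. Both are known as targets of p53. The level of Pmaip1 in wildtype was 1.87 and 1.78 untreated, -0.31 and -0.24 at 3 h, and 1.65 and 1.72 at 24 h. In knockout it was 1.93 and 2.16 untreated, -0.52 and -0.10 at 3 h, and 2.21 and 2.38 at 24 h. The 3 h samples were far below the others, and at 24 h the wildtype samples were just under and the knockout samples just over their untreated levels. Pmaip1 fell at 3 h to 23.3% of its untreated signal in wildtype (-2.10 ± 0.15) and to 19.6% in knockout (-2.35 ± 0.15), with adjusted p of 8.0e-06 and 3.0e-06. At 24 h the differences of -0.14 ± 0.15 and 0.25 ± 0.15 did not pass.

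Bbc3 fell and stayed down. Its probe is at chr7:16903403-16903462 (mm9, plus strand). RefSeq lists 3 start sites for it, and the first window (GRCm38.p6, chr7:16309333-16309582, plus strand) is shown with overlapping matches to the NF-kB consensus in capitals, 137 to 127 bases before the start, beside the second of 3 windows of Bcl2l1 (GRCm38.p6, chr2:152830718-152830967, minus strand), which holds a match at 242 to 233 bases before the start. Among the windows searched, which leave out Pmaip1, only these 2 hold this consensus, and its part in the LPS responses was not tested:
Bbc3 upstream window: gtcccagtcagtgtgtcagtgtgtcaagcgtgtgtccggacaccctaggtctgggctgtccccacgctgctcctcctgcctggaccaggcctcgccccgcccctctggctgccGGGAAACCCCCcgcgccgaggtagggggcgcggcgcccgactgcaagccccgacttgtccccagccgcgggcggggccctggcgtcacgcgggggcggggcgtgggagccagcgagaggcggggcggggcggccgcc
Bcl2l1 upstream window: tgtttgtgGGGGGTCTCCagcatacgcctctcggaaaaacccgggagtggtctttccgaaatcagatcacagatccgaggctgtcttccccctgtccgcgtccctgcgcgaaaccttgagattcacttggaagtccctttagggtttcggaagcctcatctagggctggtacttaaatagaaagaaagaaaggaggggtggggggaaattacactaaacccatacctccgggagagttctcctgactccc
In wildtype the level of Bbc3 was 2.80 and 2.41 untreated, 1.19 and 1.43 at 3 h, and 1.36 and 1.35 at 24 h. Knockout levels were 3.03 and 2.97 untreated, 1.31 and 1.49 at 3 h, and 1.17 and 1.37 at 24 h. All LPS samples lay below all untreated samples, and the 3 h and 24 h samples overlapped in both genotypes. Bbc3 fell by 1.29 ± 0.15 at 3 h and 1.25 ± 0.15 at 24 h in wildtype (adjusted p = 0.00016 and 0.00022), and by 1.60 and 1.73 in knockout. Between 3 h and 24 h it differed by 0.04 in wildtype and -0.13 in knockout, neither of which passed.

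Start-site windows of 250 bases were searched on both strands in 9 members, which have 16 windows in the RefSeq table (GRCm38.p6), with Pmaip1 left out. The second and last Bbc3 windows overlap each other. The FOXO site TGTTTAC was in 2 windows (Bcl2l11 and the second of Bbc3), against 3.17% of 32851 windows of all genes. The NF-kB consensus was in 2 (3.90% of all windows), the p53 half-site in 2 (Bmf and Bax, 7.13%) and the E-box CACGTG in 2 (Bax and the last of Bbc3, 6.02%). The AP-1 site TGANTCA (6.75%), the interferon-stimulated response element (TTTC, NN and TTTC in a row, 2.98%) and the cyclic AMP response element TGACGTCA (1.55%) were in none of the 16. These are matches of letters in short windows and do not show binding.

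**Figure D3:**
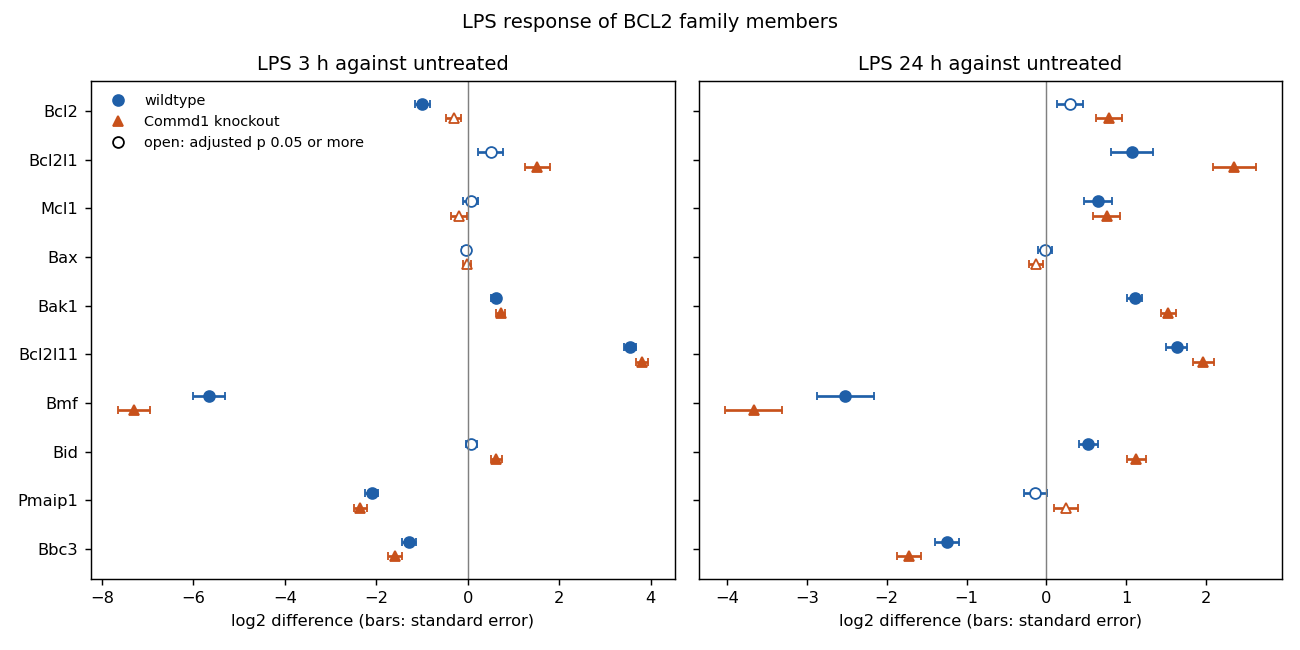
Log2 difference from untreated (horizontal axis, bars are standard errors of the limma fit) of the 10 members at 3 h and 24 h of LPS, with circles for wildtype and triangles for Commd1 knockout, filled where the adjusted p is under 0.05. Bcl2l11 is at 3.54 and 3.81 and Bmf at -5.66 and -7.30 at 3 h.

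Counted over the members, 2 rose and 4 fell at 3 h in wildtype, where 46.6% of all genes were called (23.2% higher, 23.4% lower). In knockout 4 rose and 3 fell at 3 h, against 52.1% of all genes (26.4% higher, 25.7% lower). At 24 h 5 were higher and 2 lower than untreated in wildtype (50% of all genes called, 23.6% higher and 26.4% lower) and 6 higher and 2 lower in knockout (57.6%, 26% higher and 31.5% lower). From 3 h to 24 h, 6 rose and 1 fell in wildtype (52.6%, 25.7% up and 26.9% down), and 7 rose and 1 fell in knockout (59%, 26.3% up and 32.6% down). The members' median difference from untreated was 0.01 at 3 h and 0.41 at 24 h in wildtype, beside 0.03 and -0.04 over all genes, and -0.10 and 0.77 in knockout, beside 0.06 and -0.07. With so many genes called, shares of 6 to 8 in 10 members are read as description. The LPS comparisons of a genotype share their untreated samples.

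Other measures moved with LPS as well. The marker levels of a list were added as signals and then put in log2, so that its brightest marker weighs most. Values of single markers are not given here. Well above background on all arrays were 2 of the B cell and 1 of the mast cell and basophil markers. In wildtype the 8 macrophage markers summed to 8.12 to 8.21 untreated and 8.61 to 8.67 under LPS, and the 2 measured mast cell and basophil markers to -3.35 to -2.97 untreated and -5.25 to -4.79 at 24 h. The 5 B cell markers summed to -0.40 to -0.28 untreated, -1.13 to -0.70 at 3 h and -0.94 at 24 h. The 5 measured dendritic cell markers stayed between 5.60 and 5.80 and the 5 measured neutrophil markers between 5.25 and 5.54. Of the T and NK cell markers 3 of 6 passed the filter (Cd3d, Cd3g and Cd8a did not) and summed to 2.05 to 2.48, of the erythroid markers 1 of 4 did (-4.78 to -4.34), and the 4 stroma markers summed to 1.02 to 1.26. The slope of signal against the amount of control RNA spiked in, as the scanner files give it, was 0.735 to 0.743 on the untreated and 3 h wildtype arrays and 0.820 to 0.824 at 24 h.

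In knockout the macrophage markers summed to 8.37 to 8.42 untreated, 8.78 to 9.02 at 3 h and 8.55 to 8.62 at 24 h, and the dendritic cell markers to 5.70 to 5.84, 6.06 to 6.27 and 5.69 to 5.76. The B cell markers summed to 0.68 to 0.74 untreated, -0.35 to -0.25 at 3 h and -0.57 to -0.40 at 24 h, and the mast cell and basophil markers to -4.73 to -4.30, -4.04 to -3.77 and -5.30 to -5.18. Over the 3 times, the neutrophil markers lay between 5.24 and 5.43, the T and NK cell markers between 2.16 and 2.61, the erythroid marker between -4.65 and -4.12 and the stroma markers between 0.49 and 1.84. The spike-in slope was 0.794 to 0.799 on the untreated and 3 h knockout arrays and 0.842 to 0.869 at 24 h. In both genotypes the part of these measures in the members' responses was not tested.

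Knockout was then set against wildtype at each time, which asks whether loss of Commd1 goes with other levels of these genes. In untreated cells 1 member was higher and 1 lower, where 3.76% of all genes were called higher and 3.07% lower. Bcl2l1 was 2.48-fold lower in knockout (-1.31 ± 0.27, adjusted p = 0.031), and Bmf was 2.82-fold higher (1.5 ± 0.36, adjusted p = 0.046). In both genes the 2 knockout samples lay outside the range of the 2 wildtype samples. The second Bcl2l1 probe gave -1.37 ± 0.43, which did not pass over all probes (adjusted p = 0.099). Bcl2 was -0.60 ± 0.16 (adjusted p = 0.062), Bid -0.33 ± 0.12, Bak1 -0.24 ± 0.10 and Bbc3 0.39 ± 0.15, and none of them passed.

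Both untreated calls were lost without wildtype replicate 2 (Bcl2l1 -0.99, adjusted p = 0.17; Bmf 1.07, adjusted p = 0.25) and without knockout replicate 1 (Bcl2l1 -1.01, adjusted p = 0.20; Bmf 1.10, adjusted p = 0.28). They were also lost when only the 4 untreated arrays were fitted, where 0 of all genes passed in limma, the deleted Commd1 included (-3.01, adjusted p = 0.10). Genotype was also fitted to the means of the 4 mice. Each mean pools a mouse's untreated, 3 h and 24 h samples, so this fit asks another question than the untreated comparison. Over these means Bcl2l1 differed by -0.54 and Bmf by 0.56. No member was called over the mouse means, where 0 of all genes passed in limma, Commd1 included. There, 1 member and 24.1% of all genes had an unadjusted p under 0.05. Since these 2 fits called no gene at all, they do not tell whether Bcl2l1 and Bmf differ in untreated cells. With normexp, another background correction, the mouse means called 1.20% of all genes, and Bcl2l1 and Bmf did not pass there either. Markers of other cells differed between the same untreated samples. The summed level of the 5 B cell markers lay between -0.40 and -0.28 in wildtype, against 0.68 and 0.74 in knockout. All 5 passed the filter, and 2 of them were well above background on all arrays. The summed level of the mast cell and basophil markers lay between -3.35 and -2.97 in wildtype and between -4.73 and -4.30 in knockout. Of these markers 2 of 4 passed, Cpa3 and Fcer1a did not, and 1 was well above background on all arrays. The 8 macrophage markers summed to 8.12 to 8.21 and 8.37 to 8.42. The spike-in slope was 0.735 and 0.743 on the untreated wildtype arrays and 0.794 and 0.797 on the untreated knockout arrays. The part of the markers and of the slope in the Bcl2l1 and Bmf differences was not tested.

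At 3 h and at 24 h of LPS no member was called between genotypes by limma, where 1.68% and 2.39% of all genes were. An unadjusted p under 0.05 was found for 1 and 3 members, and for 24.3% and 21.7% of all genes. Bcl2l1 differed by -0.29 at 3 h (95% interval -0.91 to 0.32) and -0.03 at 24 h (-0.64 to 0.59), and Bmf by -0.15 (-0.97 to 0.67) and 0.35 (-0.47 to 1.17). The values closest to the threshold were those of Bcl2l11, 0.46 ± 0.13 at 3 h (adjusted p = 0.092) and 0.52 ± 0.13 at 24 h (adjusted p = 0.076), and of Pmaip1 at 24 h, 0.61 ± 0.15 (adjusted p = 0.068). Without knockout 3 h replicate 2, which left 1 sample in that group, the 3 h difference of Bcl2l11 was 0.61.

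**Figure D4:**
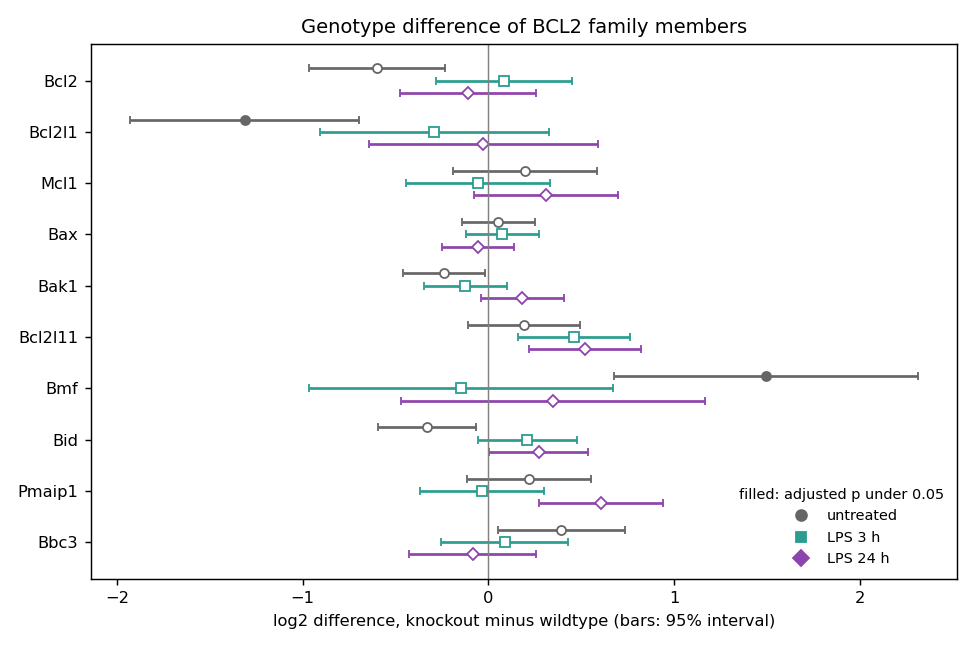
Log2 difference of knockout minus wildtype (horizontal axis, bars are 95% intervals of the limma fit) of the 10 members in untreated (circles), 3 h LPS (squares) and 24 h LPS (diamonds) samples, filled where the adjusted p is under 0.05. The filled points are Bcl2l1 at -1.31 and Bmf at 1.5, both untreated.

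Whether the response to LPS itself differed between genotypes was tested as an interaction. No member passed at 3 h or at 24 h, where 0.0348% and 0.326% of all genes did in limma. An unadjusted p under 0.05 was found for 4 and 3 members, and for 12.4% and 14.6% of all genes. The response of Bcl2l1 was larger in knockout by 1.02 ± 0.38 at 3 h and 1.28 ± 0.38 at 24 h (adjusted p = 0.324 and 0.185). That of Bmf differed by -1.64 ± 0.51 and -1.15 ± 0.51 (adjusted p = 0.235 and 0.348), and that of Bid by 0.54 ± 0.16 and 0.60 ± 0.16 (adjusted p = 0.231 and 0.160). These responses share the untreated samples in which Bcl2l1 and Bmf differed.

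Of the genes outside the members, those with the most similar profile over the 12 samples were found for the 8 members whose group means spanned at least 1 log2 unit, by the root mean square difference of gene-centred levels among 17764 genes well above background on all arrays. Bcl2l11 was closest to Tent4a (0.17), Jak2 (0.17) and Peli1 (0.22). Jak2 encodes the kinase through which the GM-CSF receptor signals, and Peli1 a ubiquitin ligase of Toll-like receptor signalling. The level of Jak2 was 1.09 and 0.86 untreated, 4.76 and 4.62 at 3 h, and 2.78 and 2.66 at 24 h in wildtype, the same order of times as Bcl2l11. The closest genes to Bmf were Sesn1 (0.55), Fam214a (0.58) and the chemokine receptor gene Cxcr4 (0.79). These distances grow with a member's own spread, which was widest for Bmf. Divided by that spread, the distance from Bmf to Sesn1 was 0.20. For the closest genes of the 8 members this ratio ran from 0.11 (Bcl2l11 to Tent4a) to 0.27 (Bcl2l1 to Npy). Sesn1 encodes a stress-responsive inhibitor of growth signalling, and its level in wildtype was 4.65 and 4.52 untreated, -1.27 and -1.07 at 3 h, and 2.22 and 2.25 at 24 h.

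The genes closest to Bcl2 were Rmi1 (0.13), Arhgap12 (0.16) and Trav6d-3 (0.17), for Bcl2l1 Npy (0.22), Slc25a25 (0.24) and P2ry10b (0.25), and for Bid Cd53 (0.092), Gnb1 (0.10) and Isca2 (0.10). Pmaip1 was closest to Ap5s1 (0.19), Ccdc181 (0.20) and Nfatc1 (0.20), and Bbc3 to D930001B02 (0.10), Arrb1 (0.10) and A830052D11Rik (0.11). For Bak1 the 3 closest were the predicted genes Gm3788, LOC100048142 and Gm6474, at 0.079 to 0.088. A member that moved little has close neighbours by this measure, since many genes move little.

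The rest of the family was read from a list of 17 other BCL2 family genes, of which 13 were among the genes that passed the filter. Bcl2a1a, Bcl2a1b, Bcl2l10 and Hrk were not among them. Their absence does not show that they were dim, since a gene with no probe under its name is absent too. At 3 h 3 of 13 rose and 3 fell in wildtype (all genes: 23.2% and 23.4%), and 3 rose and 4 fell in knockout (26.4% and 25.7%). At 24 h 3 rose and 5 fell in wildtype (23.6% and 26.4%), and 3 rose and 6 fell in knockout (26% and 31.5%). Bcl2a1c and the survival gene Bcl2a1d, a known target of NF-kB, rose at 3 h in both genotypes. The rise was 2.91 and 2.21 in wildtype and 3.92 and 3.09 in knockout, and both were still higher at 24 h. They are near-identical copies whose probes may read each other's RNA, so that they are not 2 separate observations. In untreated cells both were lower in knockout, with differences of -0.77 ± 0.14 (adjusted p = 0.023) and -0.75 ± 0.14 (adjusted p = 0.026). With only the 4 untreated arrays fitted, 0 of all genes passed in limma. These calls and those given for the other lists were thus lost there too. Over mouse means, which pool untreated and LPS samples, 0 of all genes passed as well.

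Bcl2l13, which encodes a mitochondrial outer membrane protein, fell by 0.66 and 1.07 at 3 h and 24 h in wildtype and by 0.89 and 1.17 in knockout. Bok, a relative of the pore formers, fell by 1.89 at 24 h in wildtype. In knockout at 24 h neither array measured Bok well above background, and it was at least 2.58-fold lower than untreated (adjusted p = 0.0014), a call lost with normexp (-0.083, adjusted p = 0.57). With the mouse as a block, Bok was also lower at 3 h in wildtype (-0.51, adjusted p = 0.12 without the block and 0.044 with it). Bcl2l15 rose by 1.86 at 3 h in wildtype (adjusted p = 0.00049) and by 2.54 in knockout (adjusted p = 5.6e-05), where 1 of 2 untreated arrays measured it. Bcl2l14 was lower at 24 h in wildtype, where 1 of 2 arrays measured it, and at least 1.87-fold lower in knockout, and Bik was called lower at 24 h in knockout, where neither array measured it and no fold is given. The Bik call turned direction with normexp (0.29) and was lost in the deposited value table (-0.32, adjusted p = 0.31), with only the arrays of the groups compared (adjusted p = 0.053) and without untreated replicate 2 or 24 h replicate 1 (adjusted p = 0.080 and 0.076). The Bcl2l14 calls were lost with normexp (-0.063 in wildtype, -0.045 in knockout), and that in wildtype also without untreated replicate 1 or 24 h replicate 1 (adjusted p = 0.074 in each).

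Downstream of the mitochondria and at the death receptors, all 25 listed apoptosis genes passed the filter. At 3 h 7 rose and 7 fell in wildtype (all genes: 23.2% and 23.4%), and 10 rose and 7 fell in knockout (26.4% and 25.7%). At 24 h 11 rose and 7 fell in wildtype (23.6% and 26.4%), and 10 rose and 6 fell in knockout (26% and 31.5%). Cflar, which encodes the inhibitor of caspase-8 known as c-FLIP, rose by 5.14 ± 0.19 at 3 h and 3.28 ± 0.19 at 24 h in wildtype and by 5.65 and 3.99 in knockout. Mlkl, the executor of necroptosis, rose by 1.68 and 3.17 in wildtype and by 2.02 and 3.58 in knockout. Cycs, which encodes cytochrome c, rose by 0.94 and 1.81 in wildtype and by 1.62 and 2.69 in knockout. Birc3, an inhibitor of apoptosis and a target of NF-kB, rose by 2.82 and 1.77 in wildtype and by 2.35 and 0.80 in knockout. Birc5, which encodes survivin and is high in dividing cells, fell at 24 h by 2.27 in wildtype and 2.97 in knockout, and its 3 h differences of -0.48 and -0.45 (adjusted p = 0.14 and 0.16) passed with the mouse as a block (adjusted p = 0.0033 and 0.0037). Casp9, the caspase that cytochrome c switches on, was picked after its values were seen: it fell by 2.08 at 3 h in wildtype and 2.42 in knockout, and at 24 h stood at -0.40 and -0.19.

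In untreated cells 3 of the 25 apoptosis genes were higher and 1 lower in knockout, against 3.76% and 3.07% of all genes. Birc3 was higher by 1.05 ± 0.18 (adjusted p = 0.019), Casp6 by 0.57 and Birc2 by 0.46, and Cycs was lower, with a difference of -0.72 ± 0.15 (adjusted p = 0.032).

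Among 27 known upstream regulators, 26 passed the filter and Foxo4 did not. At 3 h 14 rose and 7 fell in both genotypes, against 23.2% and 23.4% of all genes in wildtype and 26.4% and 25.7% in knockout. At 24 h 13 rose and 5 fell in wildtype (all genes: 23.6% and 26.4%), and 12 rose and 7 fell in knockout (26% and 31.5%). Stat5a, a factor through which GM-CSF acts, rose by 3.66 ± 0.13 at 3 h in wildtype and by 3.92 in knockout. At 24 h it stood at -0.31 and -0.33 (adjusted p = 0.087 and 0.067), which passed with the mouse as a block (adjusted p = 0.045 and 0.033). The NF-kB subunit genes Rel and Nfkb1 rose at 3 h by 3.43 and 2.84 in wildtype and by 3.90 and 2.80 in knockout. At 24 h Rel was still higher than untreated (0.63 and 1.13) and Nfkb1 did not pass (0.05 and -0.17). The wildtype Rel call at 24 h was lost when any of its 4 samples was left out (adjusted p = 0.053 to 0.082). Pim1, a survival kinase, rose by 2.49 and 1.47 in wildtype and by 2.47 and 0.87 in knockout. Ddit3, which encodes the stress factor CHOP, fell by 1.39 at 3 h and was higher by 2.77 at 24 h in wildtype, and in knockout it fell by 1.44 and was higher by 3.32. In untreated cells Stat3 was the only listed regulator called between genotypes, higher in knockout by 0.70 ± 0.16 (adjusted p = 0.042).

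**Figure D5:**
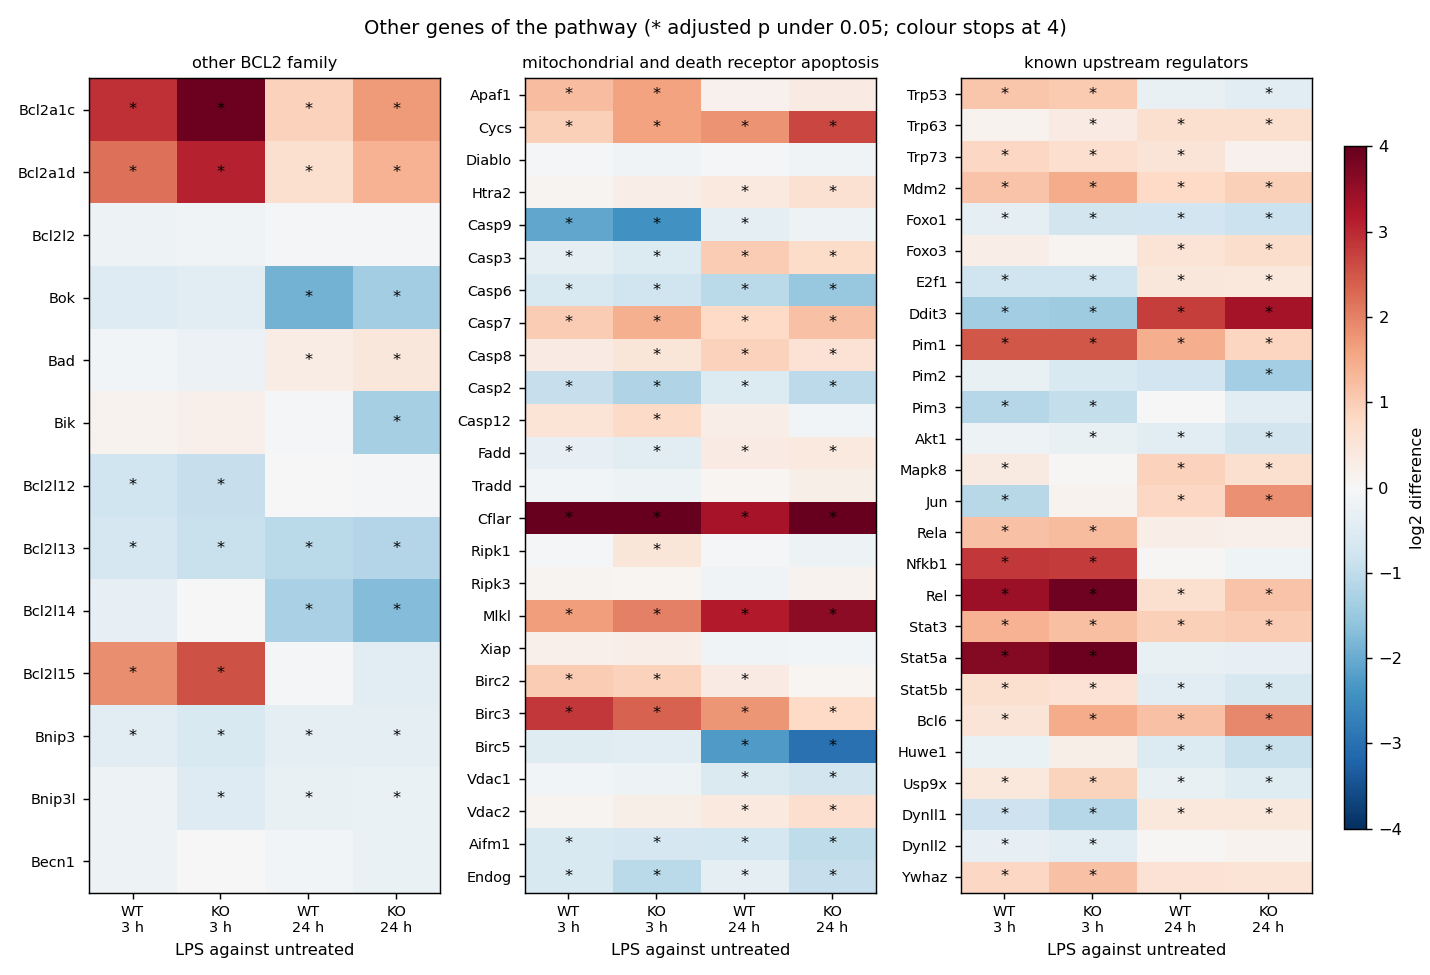
Log2 difference from untreated (colour, ending at 4 in either direction) of the measured genes of the 3 lists (rows) in wildtype and knockout at 3 h and 24 h of LPS (columns), with a star where the adjusted p is under 0.05. Cflar is the deepest red of the apoptosis list, and Ddit3 changes from blue at 3 h to red at 24 h.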

How the data were processed

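RNA of the 12 cultures was hybridised to 12 arrays of 1 colour. Per the file headers, the scanner files give a processed intensity per spot, with background subtracted on each array and no scaling to other arrays. The submitters' processing notes name Agilent Feature Extraction 10.7.3.1. The value table deposited by the authors holds log2 values: 99.5% to 100% of an array's probes above background lay within 0.01 of their own log2 signal minus a constant, and its column medians were -4.50 to -4.30, so that it is not centred per gene. The constant's basis is unknown, and the table served as an alternative.

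Control and outlier spots were left out, repeat spots were averaged, and the 75th percentile of each array was subtracted from its log2 processed signals. A probe entered if both arrays of at least 1 group were well above background (28426 of 39429 probes), and where a gene had several (4568 of 22978), its probe of highest mean was used. Of the probes, 31001 were matched to the reference's symbols and 8428 kept the file's name. A listed gene or marker said not to pass the filter is absent from the genes that passed, which includes any gene with no probe under its name. All arrays were fitted in limma 3.58.1 (R 4.3.3) with a mean per group, with 6 residual and 2.23 prior degrees of freedom. Two-sided p-values were adjusted by the method of Benjamini and Hochberg across the genes tested, with a threshold of 0.05. Genotype was also fitted to 4 mouse means, each over a mouse's untreated, 3 h and 24 h samples. The number of arrays limits the precision.

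Replicate numbers mark the same mouse, per the labels. Across genes, deviations of same-numbered samples correlated in each of the 6 pairs of times. Pearson's r was 0.12 to 0.19, and 0.35 for untreated against 3 h in knockout. Same-numbered samples of a genotype also lay at the same position on every slide, so that mouse and position cannot be told apart by this correlation. The pairing rests on the labels. The block is the mouse, fixed for LPS responses and random for genotype within a time (consensus correlation 0.10). The calls and fits were tested on simulated data.

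Where neither array of a group measured a probe well above background, a fold is given as "at least", from the brighter group's mean against the higher, per array, of the lowest signal well above background and the probe's own. Named genes were all members, other BCL2 family genes that changed by at least 1 log2 unit in an LPS comparison, the 5 with the largest change in each other list, and the 3 nearest profiles per member. The members and lists were chosen with earlier results of these data known. Promoter windows come from RefSeq (GRCm38.p6) and probe positions from the files (mm9), with no coordinates converted. Alternatives were other background corrections, scalings, filters, probe rules and fits, and leaving out each sample. Python 3.11.15 with pandas 2.3.3, numpy 2.4.6 and matplotlib 3.10.9 was used.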

Additional observations from a re-analysis of the deposited data

Results flagged for a closer look

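For Pmaip1 at 24 h of LPS, the change from the same mouse's untreated sample had opposite signs in the mice of the 2 genotypes, at -0.22 and -0.06 in wildtype and 0.27 and 0.22 in knockout. Neither genotype's change passed the limma test (-0.14, adjusted p = 0.46, and 0.25, adjusted p = 0.18), nor did their difference of 0.39 ± 0.21 (interaction adjusted p = 0.43).

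For Nfkb1 at 24 h the signs differed too, at 0.01 and 0.10 in the wildtype mice and -0.33 and -0.0042 in the knockout mice, the last of which is close to no change. Neither genotype's change passed (0.05 and -0.17), nor did their difference of -0.22 ± 0.22 (interaction adjusted p = 0.70).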

How the results depend on the processing

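Over 12 comparisons and the alternatives, 1620 values of members were recomputed: 1573 kept their direction and side of the threshold, 25 lost the threshold, 21 gained it and 1 reversed. Values that did not pass changed sign 33 times. The LPS calls of Bcl2l11, Bmf, Bak1 and Bbc3 against untreated and that of Pmaip1 at 3 h passed under all 13 alternatives run for each. The reversal was Mcl1 at 3 h in knockout, called higher at 0.50 with the mean over its probes, since that takes in the second probe. Of 1030 values of other named genes, 987 kept both, 17 lost and 21 gained the threshold, and 5 reversed: Bik at 24 h in wildtype and knockout with normexp (0.39 and 0.29), and Bcl2l15 at 24 h with normexp in wildtype and knockout (0.46 and 0.46) and with the mean over probes in wildtype (0.32). The cause was not tested. The untreated genotype calls given for the listed genes were not among these values. They were lost with only the untreated arrays fitted, where 0 of all genes passed.

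The 2 members called between untreated genotypes, beside 6.84% of all genes, became 4 with normexp (11.2% of all genes) and 1 with the mean over probes (6.39%). They were 0 without the filter (1.43%) or with only the arrays compared (0%), so that the share of all genes moved as well. They were 0 to 3 when 1 sample was left out. At 3 h the count stayed 0 under each alternative that kept all samples, and moved only without 1 knockout sample. At 24 h the count of 0, beside 2.39% of all genes, became 1 with normexp (Pmaip1, 2.86% of all genes). It became 2 with probes well above background on all arrays (Bcl2l11 and Pmaip1, 5.32% of all genes). Interactions and mouse means kept a count of 0 members under each alternative. A lone sample left in a group is assumed to vary like the other groups.

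Pairing by mouse as a replicate block changed the calls given beside Bcl2l1, Bok, Birc5 and Stat5a. It changed no other call of a named gene among the values counted above, which leave out the listed genes' untreated genotype calls. The block left the member counts at 7 in wildtype at 3 h, against 6 without it, and at 8 against 7 from 3 h to 24 h in wildtype. A block for the slide was not run, since a genotype comparison already lies within 1 slide and each time has a slide of its own.

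The counts of all genes behind the percentages moved widely between genotypes: 1571 untreated (0 to 2566 over alternatives), 387 at 3 h (0 to 2929), 549 at 24 h (0 to 947), 8 and 75 for the interactions (0 to 371 and 0 to 243), and 0 for mouse means (0 to 1467). Background correction and scaling each shifted the values over all genes. With normexp the median of all genes at 24 h went from -0.04 to 0.18 in wildtype and from -0.07 to 0.22 in knockout, and the share of calls that were higher from 47.2% to 64.5% and from 45.2% to 64.7%. From 3 h to 24 h that share went from 48.9% to 59.9% and from 44.7% to 57.3%, and between genotypes at 24 h from 30.1% to 48.4%. With the percentile over probes well above background, the 3 h share went from 49.9% to 39.0% in wildtype, from 50.7% to 38.8% in knockout and from 63.3% to 44.9% between genotypes, with medians that went from 0.03 to -0.09 and from 0.06 to -0.09.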
